A study of Mus musculus with 8 samples.

Results

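Chromatin accessibility at the genes of the TEAD transcription factors, of their coactivators YAP and TAZ, and of 3 regulators of the same pathway was compared across 4 mouse melanoma lines. The genes were Tead1, Tead2, Tead3, Tead4, Yap1, Wwtr1 (which encodes TAZ), Amotl2, Ajuba and Lats2. The regions taken were those of the deposited count table that lay inside 1 of the 9 genes, or within 50000 bp of it with that gene as the nearest end of a protein-coding gene, in GRCm38. This gave 146 of 148664 regions, 109 inside the genes and 37 outside. Tead1 had 46 regions, Wwtr1 21, Amotl2 20, Tead4 and Yap1 17 each, Lats2 14, Ajuba 7, Tead3 3 and Tead2 1. Counts were high enough to test 143 of them, and the 3 left out were 1 each at Yap1, Wwtr1 and Amotl2. The member farthest outside a gene lay 46.3 kb from Amotl2 (chr9:102779442-102780006, 9.96 to 33.1 CPM, counts normalised to library size, in the 8 libraries), and beyond the limit there were 0 regions with 1 of the 9 genes as the nearest.

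The data were 8 libraries of ATAC-seq, an assay in which the Tn5 transposase cuts open DNA and adds sequencing adapters to it. Lines 112 and 113 carry a deletion of Stat3 (Stat3Δ, labelled as knockout), lines 119 and 73 carry the floxed gene (Stat3fl, labelled as wild type), and each had 2 replicate libraries of 50000 cells. Per the labels' protocols the lines were grown as pools from lymph node cells of mice whose skin melanoma arose at about 25 to 30 weeks. The promoter that drives the recombinase or the tumour is not given in the sources used here. The sample titles also hold a number after the letter p, which the labels do not explain. It is higher for lines 113 and 73 than for lines 112 and 119, and its part in the results was not tested. The replicates are labelled biological, but nothing says that they came from separate cultures, so p-values between lines measure the spread between these libraries, which may be technical.

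Library totals ran from 2697546 to 7464336 counts. Replicates of a line correlated at 0.863 (line 112) to 0.957 (line 119) in log2 CPM across tested regions. The 11 regions inside Stat3 summed to between 39.7 and 77.2 CPM in the 8 libraries and none of the 10 tested was separated by genotype. It is not given here which part of the gene was deleted, so this does not check the labels. Xist makes the RNA of the inactive X chromosome. Its 2 regions summed to 14.8 to 23.3 CPM in the 4 knockout libraries and 2.19 to 6.39 in the 4 wild-type libraries. Whatever this difference reflects cannot be told apart from the genotype. Chromosome Y had signal in every library over 24 regions. The sums were 551 and 649 CPM (line 112), 351 and 330 (line 113), 217 and 215 (line 119), and 402 and 392 (line 73). Of 8 melanocyte-lineage genes, all had a region at a gene end, with sums over line means of 178, 289, 110 and 129 CPM in lines 112, 113, 119 and 73. Line 73 was low at Sox10 (3.09 CPM), Pax3 (6.28), Dct (0.534) and Mlana (0.256), and line 119 at Mlana (0.745) and Tyrp1 (1.02). Line 73 was the highest of the 4 at Pmel (74.6) and Mitf (39.1), which made up most of its sum. All 7 fibroblast markers had a region, with sums of 50.0, 48.0, 43.4 and 138 CPM in the same order. Line 73 was the highest at 5 of the 7, among them Pdgfrb (48.2) and Col1a2 (32.2). It was the lowest at Pdgfra (1.22, against 13.8 and 15.9 in the knockout lines and 1.83 in line 119), and at Lum it was at 0.673 against 2.51 in line 112. Of the other marker lists, 5 of 6 leukocyte genes had a region (sums of 27.3 to 42.9, with no region at Ptprc), as did 1 of 5 endothelial genes (3.82 to 7.38) and 1 of 3 keratinocyte genes (0.363 to 5.33). The part of these differences between lines in the results at the TEAD, YAP and TAZ genes was not tested.

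In the Hippo pathway the kinases LATS1 and LATS2 phosphorylate YAP and TAZ and so keep them out of the nucleus. Unphosphorylated YAP and TAZ enter the nucleus and bind DNA through TEAD1 to TEAD4, which recognise the sequence CATTCC. Ajuba is a LIM-domain scaffold that restrains LATS kinases, and AMOTL2, an angiomotin, binds YAP and holds it at cell junctions. In melanoma, TEAD activity is known as a feature of invasive, less differentiated cell states.

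The promoter sequences are shown first, to give the places where the DNA-binding motif of the TEAD family occurs in promoters of these genes. RefSeq promoter windows of GRCm38.p6 (250 bases before to 50 after a start site) were found for 7 of the 9 genes, with 11 start sites in all. CATTCC, on either strand, occurred in 8 of these 11 windows and in 14.7% of all 32851 windows. Counted by gene, 6 of 7 held it, as did 16.6% of 27025 genes with a window. Some of the 9 genes are themselves published YAP and TAZ targets. They were thus not picked independently of TEAD binding, and the contrast is a description and no test. The genes with a match were Wwtr1, Yap1, Amotl2, Ajuba, Lats2 and Tead3. The Tead2 window held only the shorter ATTCC, which CATTCC contains and which 10 of 11 windows and 38.7% of all windows held. Windows of 1 gene can overlap, and both of Wwtr1 hold the same site. The upstream bases that lie outside the gene are printed below for Wwtr1 (chr3:57575911-57576160), Yap1 (chr9:8004639-8004846), Tead3 (chr17:28350806-28351055) and Ajuba (chr14:54577662-54577911), all on the minus strand. For Amotl2 (chr9:102717727-102717756, plus strand), whose start site lies inside the annotated gene, the bases around the match are printed. Sequences run 5′ to 3′ and capitals mark CATTCC or its reverse complement GGAATG.
Wwtr1: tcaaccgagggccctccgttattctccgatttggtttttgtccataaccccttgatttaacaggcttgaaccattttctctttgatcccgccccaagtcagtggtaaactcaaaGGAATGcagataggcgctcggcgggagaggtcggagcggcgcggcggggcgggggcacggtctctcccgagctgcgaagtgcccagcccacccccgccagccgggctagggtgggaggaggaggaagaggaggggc
Yap1: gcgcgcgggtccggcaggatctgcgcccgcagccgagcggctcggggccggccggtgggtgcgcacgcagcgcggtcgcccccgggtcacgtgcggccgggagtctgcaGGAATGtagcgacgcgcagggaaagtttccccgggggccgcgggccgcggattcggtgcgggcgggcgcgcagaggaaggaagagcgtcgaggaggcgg
Tead3: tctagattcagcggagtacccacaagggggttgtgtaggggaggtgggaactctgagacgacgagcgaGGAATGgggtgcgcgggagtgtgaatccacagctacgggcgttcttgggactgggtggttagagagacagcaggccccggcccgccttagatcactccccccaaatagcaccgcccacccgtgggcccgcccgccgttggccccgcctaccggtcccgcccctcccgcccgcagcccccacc
Ajuba: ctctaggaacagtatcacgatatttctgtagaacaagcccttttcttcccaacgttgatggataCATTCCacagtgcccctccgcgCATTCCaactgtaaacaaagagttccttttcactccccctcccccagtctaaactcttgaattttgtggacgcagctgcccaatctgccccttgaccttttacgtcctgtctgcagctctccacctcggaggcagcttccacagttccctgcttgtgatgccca
Amotl2: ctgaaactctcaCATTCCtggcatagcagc
The match began at position -136 from the start site in Wwtr1, -141 in Yap1, -182 in Tead3 and -65 in Amotl2. Ajuba held 2 matches, at -186 and -164. A match is a description of the letters and not a measured binding site.

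The other motifs searched on both strands were found in 0 to 2 of the 11 windows. TGANTCA (AP-1; in 7.8% of all windows), CATGTG (MITF; 14.2%), TTCNNNGAA (STAT; 8.3%) and TTGCNNAA (C/EBP; 10.8%) were in 0 of the 11 windows. CACGTG, the E-box that MITF also binds, was in 2 (Yap1 and Lats2; 7.2% of all windows), and ACAATG (SOX) was in 1 (Lats2; 12.6%). Among the other pathway genes, CATTCC was in the window of 7 of 15 genes of the Hippo list and 4 of 13 of the YAP and TAZ target list that had one.

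All 9 genes were open at a gene end in every line. Each gene's strongest region within 1000 bp of a gene end overlapped a peak call in all 8 libraries, and its mean over libraries lay between 21.7 and 54.8 CPM. At each, the log2 fold change between genotypes was smaller in size than the larger of the differences between lines of 1 genotype. At Tead4 it was 0.43, beside 0.19 (line 112 minus line 113) and -0.87 (line 119 minus line 73). At Tead2 it was -0.15, beside 0.15 and -0.18 in the same order. In the genotype test, which compared the 2 knockout lines with the 2 wild-type lines on summed counts (edgeR's quasi-likelihood test), log2 fold changes at these regions ran from -0.26 (Ajuba) to 0.43 (Tead4), with adjusted p from 0.778 to 0.996. The background of that test is that 0.0% of 140329 regions were called at an adjusted p under 0.05, the threshold used throughout. In bulk libraries, fewer cells with an open region and a region less open in each cell cannot be told apart.

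**Figure D1:**
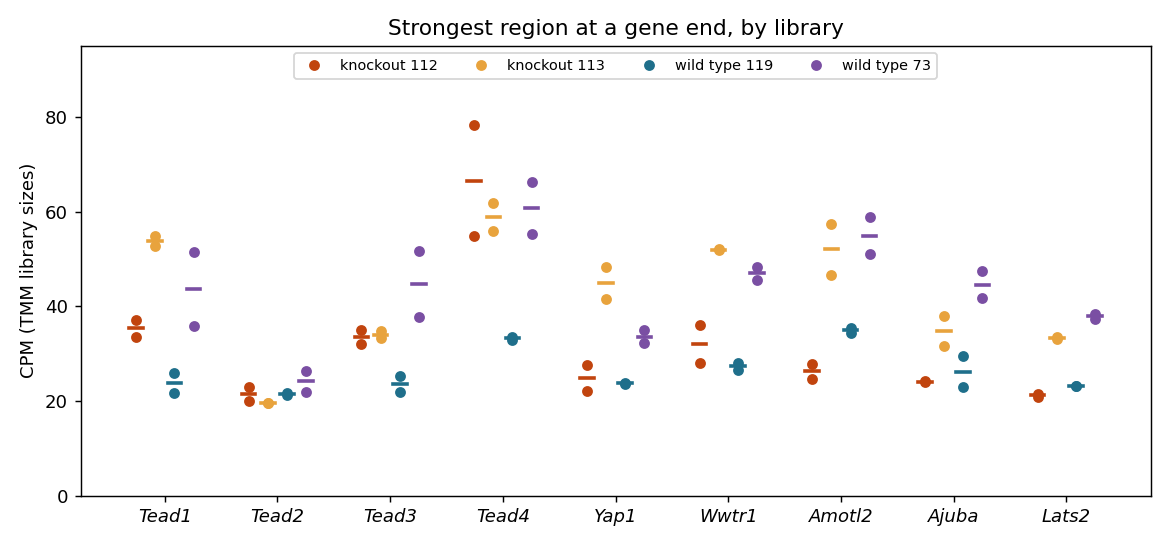
CPM (y axis, TMM library sizes) at the strongest gene-end region of each gene (x axis); each dot is a library, each bar the mean of a line, and colours mark the 4 lines. By line mean, line 119 was lowest at Tead1, Tead3, Tead4, Yap1 and Wwtr1, line 112 was lowest at Amotl2, Ajuba and Lats2, and Tead2 was nearly level. Lines 112 and 119 were not called different from each other at Yap1, Wwtr1, Amotl2, Ajuba or Lats2.

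Among the factors, the Tead1 gene end (chr7:112678330-112680262) had 37.2 and 33.5 CPM (line 112), 52.8 and 54.9 (line 113), 26.0 and 21.6 (line 119), and 51.5 and 35.8 (line 73). The lowest line was thus a wild-type line and the other wild-type line lay among the knockouts. Line means were 44.6 ± 13.0 CPM in knockout and 33.7 ± 14.0 in wild type (SD over 2 lines), a log2 fold change of 0.39 (SE 0.60, adjusted p 0.819). Its 2.26-fold range over lines was the widest of the 9. TEAD4 is the family member known for its role in the trophectoderm of the embryo. Its gene end (chr6:128300230-128301034) had 78.2 and 54.8 CPM (line 112), 61.8 and 55.9 (line 113), 32.8 and 33.6 (line 119), and 66.3 and 55.3 (line 73). Line 119 was lower than each other line, with no overlap, and the other 3 lines overlapped. At the Tead3 gene end (chr17:28349906-28351241) line 112 had 34.9 and 32.0 CPM, line 113 34.7 and 33.4, line 119 21.8 and 25.3, and line 73 51.7 and 37.8. Both extremes were wild-type lines, and the log2 fold change between genotypes was -0.02 (SE 0.61). The Tead2 region (chr7:45215561-45216963) stayed between 19.5 and 26.4 CPM in all 8 libraries, a 1.24-fold range over line means, and 0 of its 6 pairs of lines were called.

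For the coactivators, the Yap1 gene end (chr9:8004243-8005038) had 27.7 and 22.2 CPM (line 112), 41.5 and 48.4 (line 113), 23.8 and 23.6 (line 119), and 32.3 and 35.0 (line 73). Lines of 1 genotype differed from each other in both genotypes, by -0.84 in log2 between the knockout lines (line 112 minus line 113, SE 0.19, adjusted p 0.000728) and by -0.50 between the wild-type lines (line 119 minus line 73, SE 0.19, adjusted p 0.019). A weaker Yap1 gene-end region beside it (chr9:8003217-8004012) had another order, with line 112 lower and line 73 higher than each other line. Its line means were 13.7 CPM (line 112), 25.7 (line 113), 22.7 (line 119) and 35.6 (line 73). The genotype log2 fold change there was -0.57 (SE 0.66, adjusted p 0.736). The Wwtr1 gene end (chr3:57575557-57576187) had 36.1 and 28.0 CPM (line 112), 52.1 and 51.8 (line 113), 26.6 and 28.0 (line 119), and 48.4 and 45.6 (line 73). Lines 113 and 73, of opposite genotype, were the high pair and did not differ beyond their spread (0.14, SE 0.17, adjusted p 0.509). They are also the lines with the higher title numbers after the letter p, whose part here was not tested.

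The 3 regulators shared an order in which line 73 was highest and line 112 lowest. At the Amotl2 gene end (chr9:102717355-102717962) line 112 had 27.9 and 24.6 CPM, line 113 57.3 and 46.7, line 119 34.3 and 35.5, and line 73 51.0 and 58.9. Lines 113 and 73 did not differ beyond their spread (-0.08, SE 0.17, adjusted p 0.734). The Ajuba gene end (chr14:54577215-54578616) had 24.0 and 24.3 CPM (line 112), 31.7 and 38 (line 113), 22.9 and 29.5 (line 119), and 47.4 and 41.7 (line 73). The Lats2 gene end (chr14:57745835-57746540) had 21.4 and 20.9 CPM (line 112), 33.5 and 33.1 (line 113), 23.1 and 23.1 (line 119), and 37.4 and 38.3 (line 73). Lines 112 and 119 were the low pair at both genes and did not differ beyond their spread (adjusted p 0.666 at Ajuba and 0.621 at Lats2). Their titles hold the lower numbers after the letter p.

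The median range over lines was 1.87-fold for the 9 genes and 1.98-fold for the 6525 gene-end regions of protein-coding genes that were at least as strong as the weakest of the 9. The 3 genes whose gene end most resembled that of Tead1 in centred log2 CPM over the 8 libraries were Ier5l (distance 0.21), Kctd20 (0.23) and Sptan1 (0.26). For Amotl2 they were Dock1 (0.16), Glrx5 (0.18) and Tssc4 (0.19), and for Tead4 they were Calu (0.25), Mat2a (0.26) and Cdca3 (0.27).

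Over all 143 tested regions, 0 were called in the genotype test by edgeR, where the background is 0.0%, and 0 by DESeq2, where it is 4.98%. The smallest adjusted p was 0.171, at Tead4, against 0.143 over all regions. Unadjusted p fell under 0.05 at 7 regions, 5 higher and 2 lower in knockout, while 16.9% of all regions passed that level. The median log2 fold change was 0.04, beside -0.091 over all regions tested, and values ran from -2.21 to 2.25, both at Wwtr1.

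The lines themselves differed at most of these regions. In the model of all 8 libraries, with 1 mean for each line, 89 of the 143 regions (62.2%) differed between the wild-type lines 119 and 73, beside 56.9% of all regions. The knockout lines 112 and 113 differed at 45 (31.5%), beside 23.8%. Between genotypes, lines 112 and 119 differed at 59 (41.3%, beside 45.8%), lines 112 and 73 at 80 (55.9%, beside 49.9%), lines 113 and 119 at 73 (51.0%, beside 58.9%) and lines 113 and 73 at 74 (51.7%, beside 52.2%). The count between lines 113 and 119 was 43 without line 113 replicate 1, 44 without line 119 replicate 1 and 43 without line 119 replicate 2. In none of the 6 pairs did 8 of the 143 regions differ (5.59%, beside 11.9% of all regions).

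**Figure D2:**
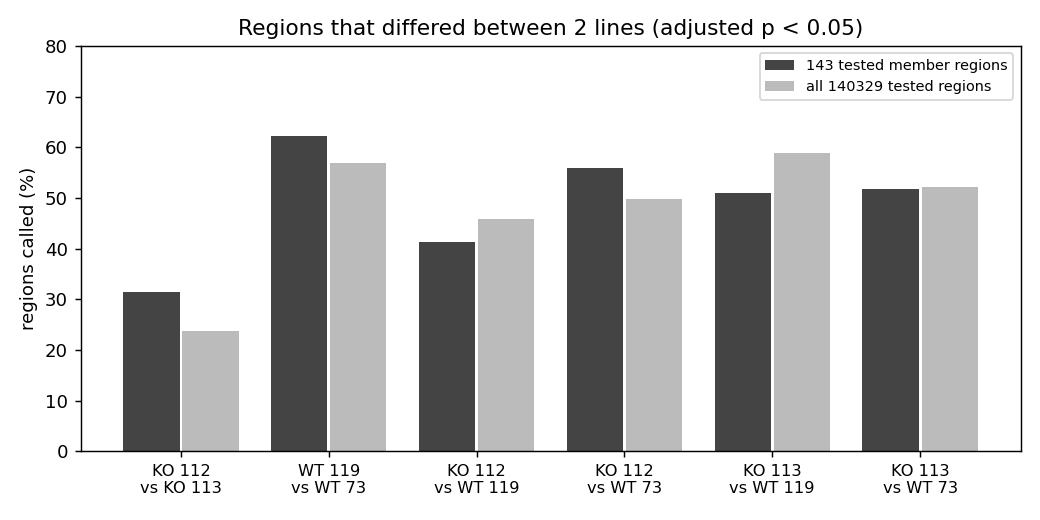
Share of regions called between 2 lines (y axis, percent) for each of the 6 pairs (x axis); dark bars are the 143 tested regions of the 9 genes and light bars all 140329 tested regions. The tallest dark bar, at 62.2%, is the pair of wild-type lines.

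**Figure D3:**
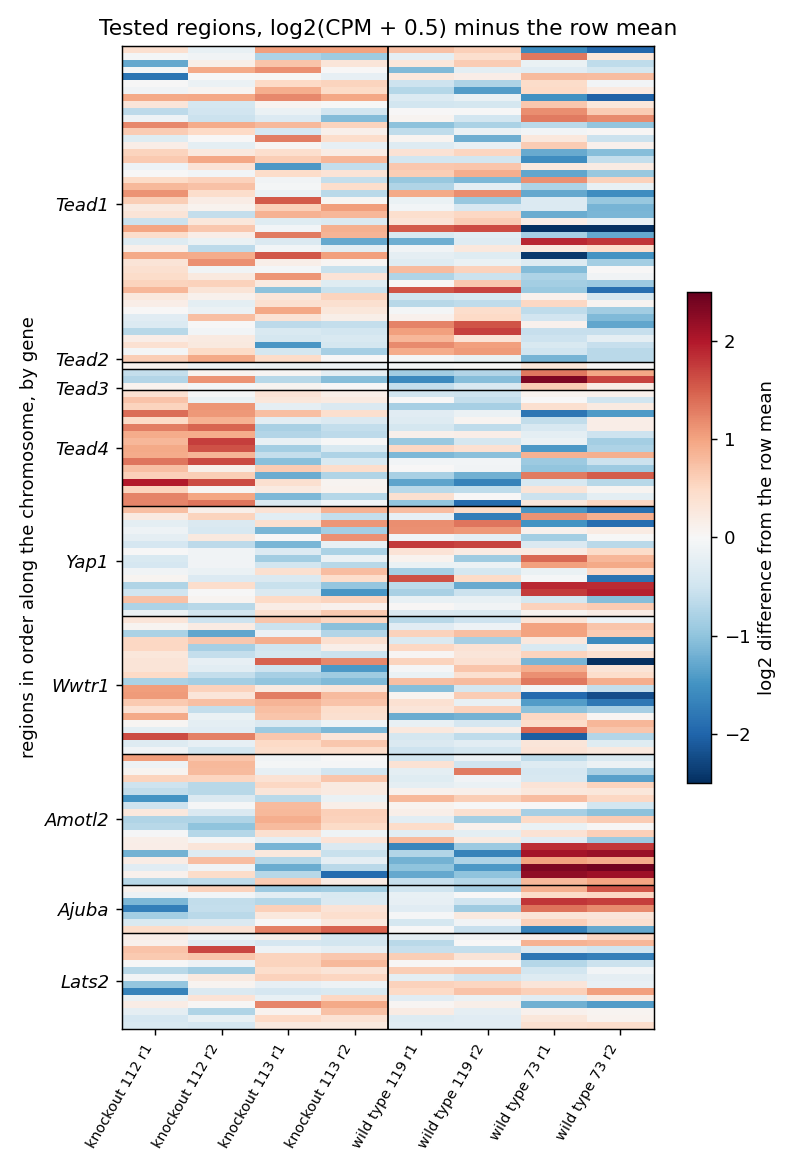
Tested regions of the 9 genes as rows, in order along the chromosome within each gene, and the 8 libraries as columns (r1 and r2 are the replicates); colour is log2(CPM + 0.5) minus the mean of the row. Red blocks mark line 112 over most of Tead4 and line 73 near the end of Amotl2.

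Regions where both knockout lines lay on 1 side of both wild-type lines, with all 4 pairs called, were 8 on the higher side (5.59%, beside 7.64% of all regions) and 4 on the lower side (2.80%, beside 7.41%). The 8 were 4 at Tead1, 3 at Tead4 and 1 at Wwtr1, and the 4 were 2 at Wwtr1 and 1 each at Amotl2 and Lats2. All 12 lay inside their gene and over 1000 bp from its ends, and 0 were at gene ends. The higher count was 5 without line 113 replicate 1, without line 119 replicate 1 or without line 119 replicate 2.

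Some regions set 1 line apart from each of the 3 others, with all 3 pairs called, a rule defined after the values were seen. Line 112 was higher at 11 of 143 regions (7.69%, beside 1.76% of all regions) and lower at 4 (2.80%, beside 1.28%). Line 113 was higher at 6 (4.2%, beside 7.26%) and lower at 0 (beside 2.65%). Line 119 was higher at 8 (5.59%, beside 11%) and lower at 8 (5.59%, beside 4.86%). Line 73 was higher at 20 (14.0%, beside 13.2%) and lower at 20 (14.0%, beside 10.2%). Tead4 held 9 of the 11 regions where line 112 was the high one, and Tead1 held 7 of the 20 where line 73 was the low one. With the median of each 10 Mb window taken out, line 112 was higher at 5 (3.5%, beside 0.863% of all regions) and lower at 4 (2.8%, beside 1.16%). Line 113 was then higher at 3 (2.1%, beside 7.01%) and lower at 4 (2.8%, beside 2.12%). Line 119 was then higher at 6 (4.2%, beside 11.2%) and lower at 4 (2.8%, beside 3.55%). Line 73 was then higher at 23 (16.1%, beside 12.7%) and lower at 20 (14.0%, beside 10.1%).

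By library rather than by line, all 4 knockout libraries exceeded all 4 wild-type libraries at 25 of 143 regions (17.5%, beside 14.0% of all regions) and all 4 were below at 9 (6.29%, beside 12.6%).

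**Figure D4:**
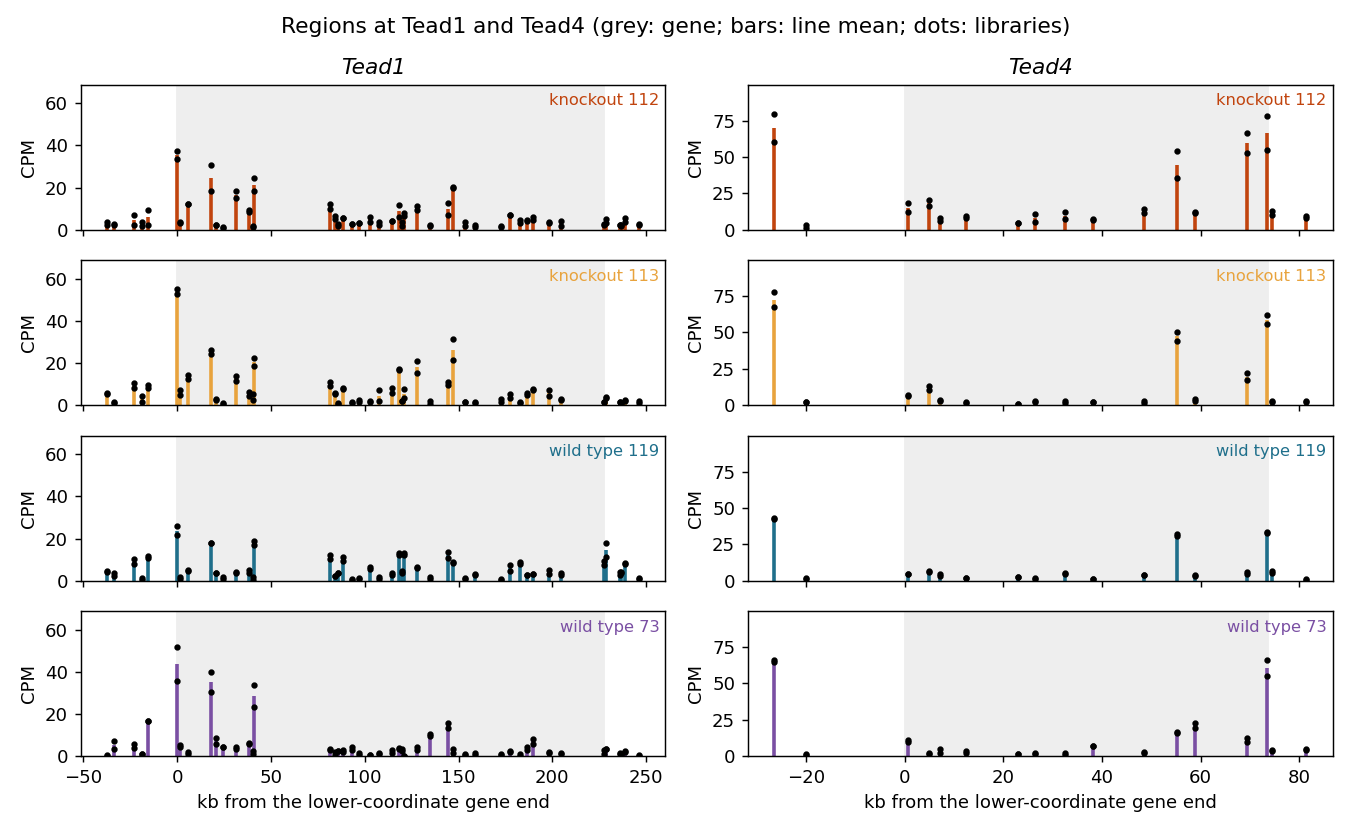
CPM (y axis) of each region at Tead1 (left) and Tead4 (right) against its distance from the lower-coordinate end of the gene (x axis, kb), 1 row per line; bars are line means, dots are libraries and grey marks the gene. The Tead1 region 80.2 kb from a gene end, the tallest in the right part of the gene in line 113, is at 20.2 and 26.4 CPM in the knockout lines and 8.53 and 2.43 in the wild-type lines.

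At Tead1 the 4 separated regions were spread through the gene. The most different (chr7:112825990-112827087, 80.2 kb from a gene end) had 20.5 and 20.0 CPM (line 112), 31.3 and 21.5 (line 113), 8.79 and 8.27 (line 119), and 1.54 and 3.33 (line 73). The genotypes did not overlap, and line 73 was lower than line 119 too. Line means were 23.3 ± 4.35 CPM in knockout and 5.48 ± 4.31 in wild type, a log2 fold change of 2.05 (SE 0.83), with an adjusted p of 0.230 in the genotype test. The region 5.93 kb inside the gene (chr7:112684770-112685810) had line means of 12.2 and 13.4 CPM in knockout and 4.94 and 1.45 in wild type, and the one 31.6 kb inside (chr7:112710503-112711335) had 16.6 and 12.7 against 3.86 and 4.11. Other Tead1 regions followed a single line. Line 73 was lower than each other line at 7 of 46 regions (15.2%, beside 10.2% of all regions). One of these (chr7:112799689-112800529) had 8.15 and 6.46 CPM (line 112), 3.62 and 7.50 (line 113), 12.0 and 13.0 (line 119), and 0.256 and 0.0 (line 73). Line 119 was higher than each other line at 5 (10.9%, beside 11% of all regions), among them the region at the gene's far end (chr7:112907408-112908726), with 11.1 and 18.1 CPM in line 119 and 3.03 to 4.92 elsewhere.

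At Tead4 the leading pattern was line 112. It was higher than each other line at 9 of 17 regions (52.9%, beside 1.76% of all regions), higher than line 119 at 15 (beside 22.2% of all regions) and than line 113 at 13 (beside 8.24%). The region with the smallest genotype p of all 143 (chr6:128296114-128296867, 4.32 kb inside the gene) had 66.6 and 52.6 CPM (line 112), 22.0 and 17.4 (line 113), 6.33 and 4.90 (line 119), and 12.5 and 10 (line 73). Both knockout lines were above both wild-type lines, and line 112 was 1.60 log2 units above line 113 (SE 0.20, adjusted p 1.98e-08). The log2 fold change between genotypes was 2.24 (SE 0.74, adjusted p 0.171). A second separated region (chr6:128282032-128282734) was alike in the 2 knockout lines, at 44.8 and 47.3 CPM, with 31.3 in line 119 and 16.4 in line 73. The region at chr6:128285663-128286238 was highest in line 73, with 19.7 and 22.8 CPM. It had 11.9 and 12.0 in line 112, and 2.95 to 4.35 in lines 113 and 119. Chromosome 6 around Tead4 was high in line 112 as a whole. The median log2 ratio of that line to the mean of the lines was 0.79 over regions of the surrounding 10 Mb window. In the same window the ratio was -0.53 in line 119, -0.32 in line 113 and 0.01 in line 73. With each window's median taken out, line 112 stood above each other line at 2 of 17 regions (beside 0.863% of all regions) and below at 1 (beside 1.16%). Line 119 was then lower than each other line at 1 region (beside 3.55% of all regions) instead of 4 (beside 4.86%). The separated regions were 1 instead of 3. The gene end's log2 fold change between genotypes was 0.05 instead of 0.43, and that of the region 4.32 kb inside was 1.61 (adjusted p 0.219).

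At Yap1, 0 regions were separated by genotype and single lines stood out. An intragenic region (chr9:7952912-7953488) had 21.6 and 20.8 CPM in line 119 and 2.49 to 5.32 in the other 6 libraries. The log2 difference of line 119 from line 73 was 2.35 (SE 0.30, adjusted p 2.40e-09), between lines of the same genotype. Another (chr9:7979634-7980167) had 8.45 and 9.72 CPM in line 73 and 0.484 to 2.15 in the other 6. Line 73 was higher than each other line at 5 of 16 tested Yap1 regions (31.2%, beside 13.2% of all regions), and line 119 at 3 (18.8%, beside 11% of all regions). The 10 Mb window around Yap1 was high in line 119, with a median log2 ratio of 0.40. With window medians taken out, line 119 was higher than each other line at 1 region (beside 11.2% of all regions) and line 73 at 5 (beside 12.7%). In that setting 1 region was separated on the higher side, for which the share of all regions is not given here.

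Wwtr1 held separated regions in both directions. The region at chr3:57512189-57512726 had 1.63 and 1.54 CPM (line 112), 1.36 and 1.21 (line 113), 5.69 and 5.91 (line 119), and 8.71 and 6.39 (line 73). The genotypes did not overlap and lines of 1 genotype did not differ beyond their spread. The log2 fold change was -2.21 (SE 0.88, adjusted p 0.223). The region at chr3:57562503-57563485, 12.9 kb from a gene end, went the other way, with 9.31 and 7.08 CPM (line 112), 4.53 and 3.39 (line 113), 1.81 and 1.52 (line 119), and 0.256 and 1.39 (line 73). Its log2 fold change was 2.25 (SE 0.91, adjusted p 0.229). The third (chr3:57487340-57488153) was lower in knockout, at 2.46 to 6.12 CPM against 10.3 to 14.1. The 10 Mb window around Wwtr1 was low in line 112, with a median log2 ratio of -0.55. With window medians taken out, the separated regions were 2 higher and 2 lower. Line 112 was then higher than line 119 at 10 of 20 regions instead of 3. Before that step 22.2% of all regions were higher in line 112 than in line 119. The shares of all regions after it are not given here for these counts.

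**Figure D5:**
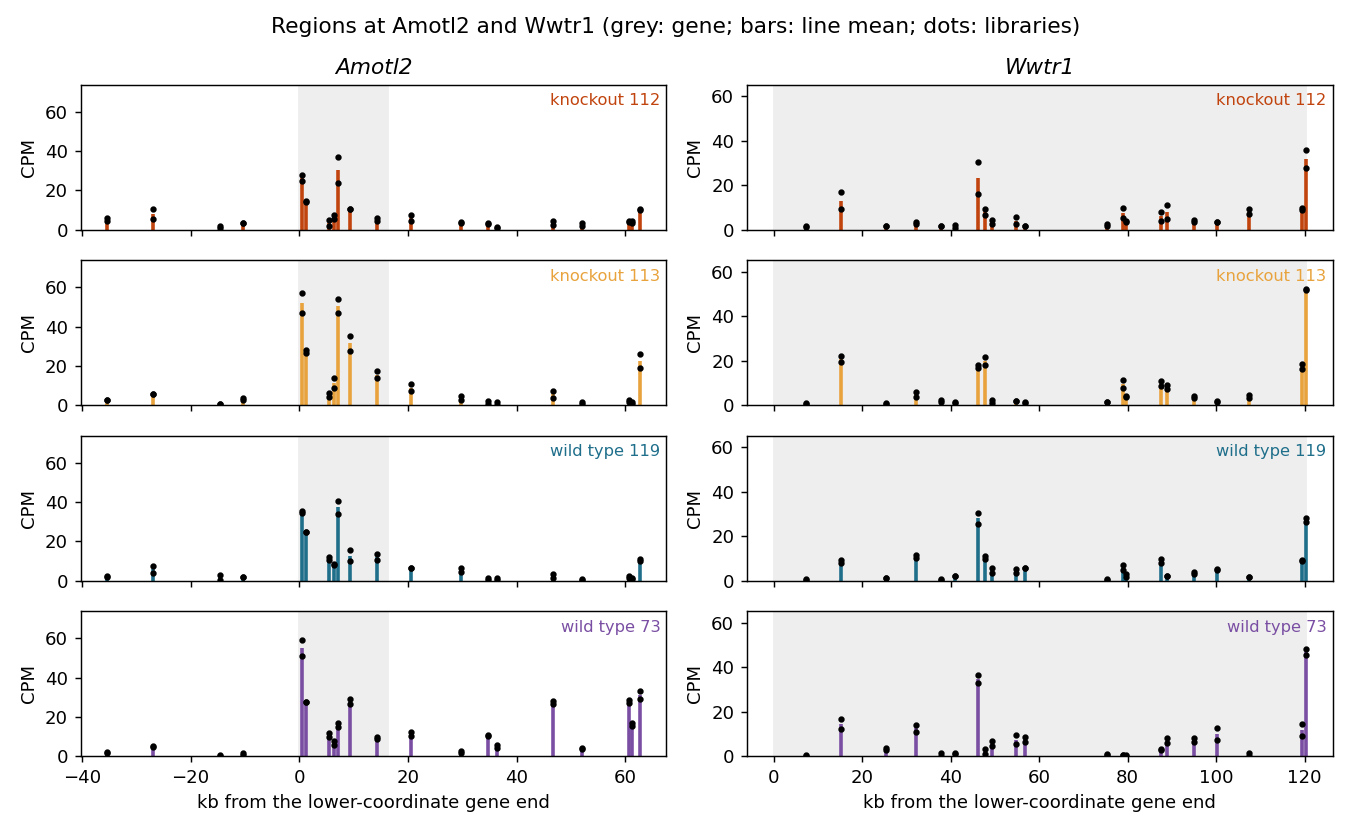
CPM (y axis) of each region at Amotl2 (left) and Wwtr1 (right) against its distance from the lower-coordinate end of the gene (x axis, kb), 1 row per line; bars are line means, dots are libraries and grey marks the gene. Beyond the Amotl2 gene, line 73 reaches 27.3 and 27.9 CPM at 2 regions that stay at or under 5.56 in the other lines.

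The regulators also had regions that followed line 73. Beyond the Amotl2 gene, 30.3 kb from its end, a region (chr9:102763456-102764030) had 26.6 and 28.1 CPM in line 73 and 1.52 to 7.25 in the other 6 libraries. A region 44.3 kb from the end (chr9:102777458-102777970) had 27.1 and 28.6 CPM in line 73 and 1.52 to 4.62 in the others. The difference between the wild-type lines there was -3.86 in log2 (line 119 minus line 73, SE 0.30, adjusted p 4.90e-16), so the genotype log2 fold change of -2.16 (SE 1.06, adjusted p 0.312) came with wild-type lines that lay apart. Inside Amotl2, a region open in all 8 libraries (chr9:102723895-102724487) was lowest in line 73, at 16.9 and 14.7 CPM against 23.7 to 54.1 elsewhere. Its separated region (chr9:102722231-102722731) had 2.09 to 6.05 CPM in knockout and 10 to 12.3 in wild type. Inside Ajuba (chr14:54572618-54573343), line 73 had 38.2 and 36.4 CPM and the other 6 libraries 4.65 to 9.18. Inside Tead3 (chr17:28340556-28341583), line 73 had 40.2 and 25.6 CPM, line 112 had 4.42 and 17.2, and lines 113 and 119 had 2.2 to 4.53. The 2 replicates of line 112 were far apart at that region. Of the 7 fibroblast markers, 5 were also highest in line 73 and Pdgfra and Lum were not, and their part in these regions was not tested.

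At Lats2, which encodes the kinase that inhibits YAP and TAZ, 1 of 14 regions was separated (7.14%, beside 7.41% of all regions on the lower side). It lay 15.8 kb inside the gene (chr14:57729816-57731058) and had 4.42 and 11.7 CPM (line 112), 11.1 and 11.4 (line 113), 21.5 and 25.0 (line 119), and 23.0 and 31.1 (line 73). The genotypes did not overlap, and neither the 2 knockout lines (adjusted p 0.205) nor the 2 wild-type lines (0.413) differed beyond their spread. The replicates of line 112 were far apart there. Line means were 9.65 ± 2.25 CPM in knockout and 25.1 ± 2.73 in wild type, a log2 fold change of -1.41 (SE 0.72, adjusted p 0.330). It ran from -1.68 to -1.14 when each library was left out. The region at chr14:57706916-57708062 was open in all 8 libraries and highest in line 113, at 36.0 and 43.1 CPM against 14.6 to 24.8 elsewhere.

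The other genes of the pathway were read by the same rule for regions. The Hippo list of 18 kinases, adaptors and TEAD-binding VGLL proteins had 261 regions, 252 of them tested, with 0 called in the genotype test by edgeR and 11 by DESeq2, which called 4.98% of all regions. Of these, 26 (10.3%) were separated on the higher side and 20 (7.94%) on the lower side, beside 7.64% and 7.41% of all regions, and the median log2 fold change was 0.12 beside -0.091. The higher count was 15 without line 112 replicate 1 and 17 without line 119 replicate 1. The 3 smallest p-values were at Stk4 (MST1, the kinase upstream of LATS), Amotl1 and Vgll3. The Stk4 region (chr2:164150164-164150853) had 15.4 to 36.2 CPM in knockout libraries and 2.78 to 3.58 in wild type, a log2 fold change of 3.05 (SE 0.80, adjusted p 0.143). Amotl1 (chr9:14551911-14552493) had 4.19 to 14.5 CPM against 0.129 to 1.54. Vgll3 (chr16:65818728-65819283) had 1.63 to 3.14 CPM in knockout and 15.5 to 25.6 in wild type.

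The list of 20 published YAP and TAZ targets, from which those among the 9 genes were left out, had 385 regions, 374 of them tested. In the genotype test 0 were called by edgeR and 19 by DESeq2 (beside 4.98% of all regions). Separated regions were 21 (5.61%) on the higher side and 33 (8.82%) on the lower side, beside 7.64% and 7.41% of all regions, and the median log2 fold change was -0.38 beside -0.091. Medians were lowest at Igfbp3 (-1.49 over 9 regions), Axl (-1.32 over 7), Nuak2 (-1.17 over 5) and Ccn2, the matricellular target CTGF (-1.12 over 11). The smallest p-values were at Rbms3, Crim1 and Myof. Rbms3 (chr9:116590954-116591534) had 1.21 to 2.33 CPM in knockout and 9.45 to 27.4 in wild type, a log2 fold change of -3.64 (SE 0.91, adjusted p 0.143, and 0.0482 without line 112 replicate 1). Of the 86 tested Rbms3 regions, 12 were higher and 4 lower in knockout at an unadjusted p under 0.05 in the genotype test. Crim1 (chr17:78250471-78251165) had 7.91 to 15.6 CPM against 0.129 to 1.39, and Myof (chr19:37851493-37852088) had 5.54 to 15.5 against 0.278 to 1.28. Median log2 fold changes over all tested regions of these genes were 0.04 (Rbms3), 0.2 (Crim1) and -0.61 (Myof). Line 73 was higher than each other line at 101 target regions (27.0%, beside 13.2% of all regions). The fibroblast marker sum was also highest in line 73, though Pdgfra and Lum were not, and its part in this count was not tested.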

How the data were processed

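ATAC-seq was measured in 8 libraries of 4 lines. The authors deposited raw counts for each region and library, and, per library, a peak list with a score, the fold enrichment (a ratio), and 2 columns of −log10 values (p and q) for each peak. The submitters' processing notes name Bowtie2 2.2.4, Picard 1.118, MACS2 2.1.1.20160309, mm10 and GRCm38, with no role or order. Whether reads, fragments or shifted cuts were counted is not given in the sources used here, so counts may hold duplicates. Peak lists were used only for overlap of at least 1 bp. The table has 0 columns of other samples.

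Regions were placed with the GRCm38.p6 gene table (21887 protein-coding genes), which has no strand, so a gene end can be the start or the finish. Coordinates are 1-based. filterByExpr on counts summed per line (minimum count 10, minimum total 15) kept 140329 regions. The genotype test was edgeR 4.0.16 in R 4.3.3 (glmQLFit, robust, and glmQLFTest, two-sided, TMM) on the 4 line sums, with Benjamini-Hochberg adjustment over all regions. Pairs of lines were tested in the fit of 8 libraries. The SE is the log2 fold change divided by the square root of F. A count of 10 is 3.08 CPM in the shallowest library and 1.29 in the deepest, so low regions are imprecise. The fits were tested on simulated data with no spread between lines beyond that between replicates. The genotype test was therefore not checked under the differences between lines seen here.

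Named regions were, for each gene, the strongest within 1000 bp of a gene end, the one of smallest genotype p among the others, those separated and at least 4-fold different, and the 3 smallest p in each list. Other regions named were chosen after their values were seen. The members and lists were chosen with earlier results of these data known. Alternatives were DESeq2 1.42.0, its size factors, total counts, other filters, peak-called regions, window offsets, libraries as units, the replicate block, leaving out each library, and leaving out regions that also lie inside another gene.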

Additional observations from a re-analysis of the deposited data

How the results depend on the processing

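The genotype count at the 9 genes was 0 under the main settings, and 20 with libraries as units or 14 with the replicate block. For the Hippo list these were 69 and 48, and for the targets 87 and 62. The DESeq2 test called 11 and 19 in the lists, and leaving out 1 library gave 0 to 1 in the targets. Libraries of 1 line are not independent units of genotype. The shares of all regions under the same settings are not given in this section, so no count here is read as particular to these genes. The replicate numbers did not pair the samples (correlations of deviations from -0.0367 to 0.00386). With a mean of at least 50 counts, fewer regions were tested: the pairs gave 16 (112 and 119), 20 (112 and 73), 18 (113 and 119), 21 (113 and 73), 14 (112 and 113) and 17 (119 and 73), separated regions were 2 and 2, and in the lists 7 and 9 (Hippo) and 3 and 16 (targets). DESeq2 gave 34 (112 and 119), 40 (113 and 119) and 26 (112 and 113), with 4 separated higher, 13 in the Hippo list and 11 in the targets. The cause of these DESeq2 differences was not tested. Leaving out each library gave 43 to 76 regions (113 and 119), 5 to 10 separated higher, and 15 to 26 in the Hippo list. The Tead3 gene end, at -0.02, changed sign with total counts (0.08), a mean of at least 50 counts (0.02) and peak-called regions (0.07), and ran from -0.13 to 0.13 when each library was left out (0.01 without line 112 replicate 2, 0.02 without line 119 replicate 2). Low counts limit precision at most regions away from gene ends.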
